A study of Caenorhabditis elegans with 19 samples.

Results

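Seam cell fate regulators were described here as 8 genes of Caenorhabditis elegans (rnt-1, bro-1, ceh-16, egl-18, elt-6, elt-1, lin-22 and grh-1), out of 46926 genes in a RefSeq gene table. A peak or site was counted for one of them when the authors' annotation named that gene as the nearest. This gave 20 of 37018 annotated peaks of the first larval stage (L1), 3 of 8333 peaks of the second (L2), and 9 of 14675 sites in the authors' comparison of the stages. All the larvae used carried the allele cc2841, in which lin-14 is fused at its C terminus to GFP. Whole larvae were taken 8 ± 1 hours (L1) or 21 ± 1 hours (L2) after plating on food. Chromatin was pulled down with GFP-binding beads and sequenced, with 5 ChIP and 4 input libraries per stage. A single ChIP library of untagged N2 larvae in L1 was not analysed here. Each stage was represented by 1 peak list called on merged libraries, so values for single libraries were lacking, their depth is unknown, and no replicate error goes with a peak's value. Outliers were left out in the processing, so fewer than 5 ChIP libraries may stand behind a list. Because whole larvae were used, occupancy in seam cells cannot be separated from occupancy in other tissues, and fewer bound cells cannot be told apart from less LIN-14 per cell.

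Seam cells are a row of epidermal stem-like cells along each side of the larva. They divide at each larval stage, and most divisions give 1 daughter that stays a seam cell and another that fuses with the surrounding epidermis. Symmetric divisions expand the row in L2. LIN-14 is a nuclear factor whose level is high in L1 and falls afterwards, and it sets which stage's division pattern the seam cells follow. The regulators described here act in these cells or in the epidermis at large. They are the Runx factor RNT-1 and its partner BRO-1, the homeobox factor CEH-16, the GATA factors ELT-1, EGL-18 and ELT-6, the Hes-type repressor LIN-22 and the Grainyhead factor GRH-1.

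In the authors' deposited table, made with DiffBind, 5 of the 9 sites were lower in L2 at a false discovery rate (FDR) below 0.05 and 0 were higher, where 41.4% of all listed sites were lower and 0.123% higher. The 5 lay at grh-1 (2 sites), ceh-16, egl-18 and lin-22 in the authors' deposited table. All 9 had a fold below 0, as did 14638 of all 14675 listed sites. No site with an FDR above 0.3 is listed, so shares of listed sites are not shares of all bound sites. None of the 9 was therefore higher at an unadjusted DiffBind p under 0.05 either.

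In L1, 7 of the 8 genes had at least 1 assigned peak, and 69.2% of all protein-coding genes did. In L2, 2 of the 8 did (bro-1 and lin-22), and 24.5% of protein-coding genes did. The L1 peaks of the 7 genes numbered 1 to 5 each, with a median of 3, and the median over protein-coding genes with an L1 peak was 2. The most peaks, 5, were assigned to egl-18, a number that 6.34% of those genes reached or passed. Fold enrichment over control at the summit, the authors' own value, ran from 1.41 to 2.36 over the 20 peaks with a median of 1.89. Over all L1 peaks the median was 1.81. The 20 peaks were 183 to 563 bp wide. With 1 list per stage these counts have no test.

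**Figure D1:**
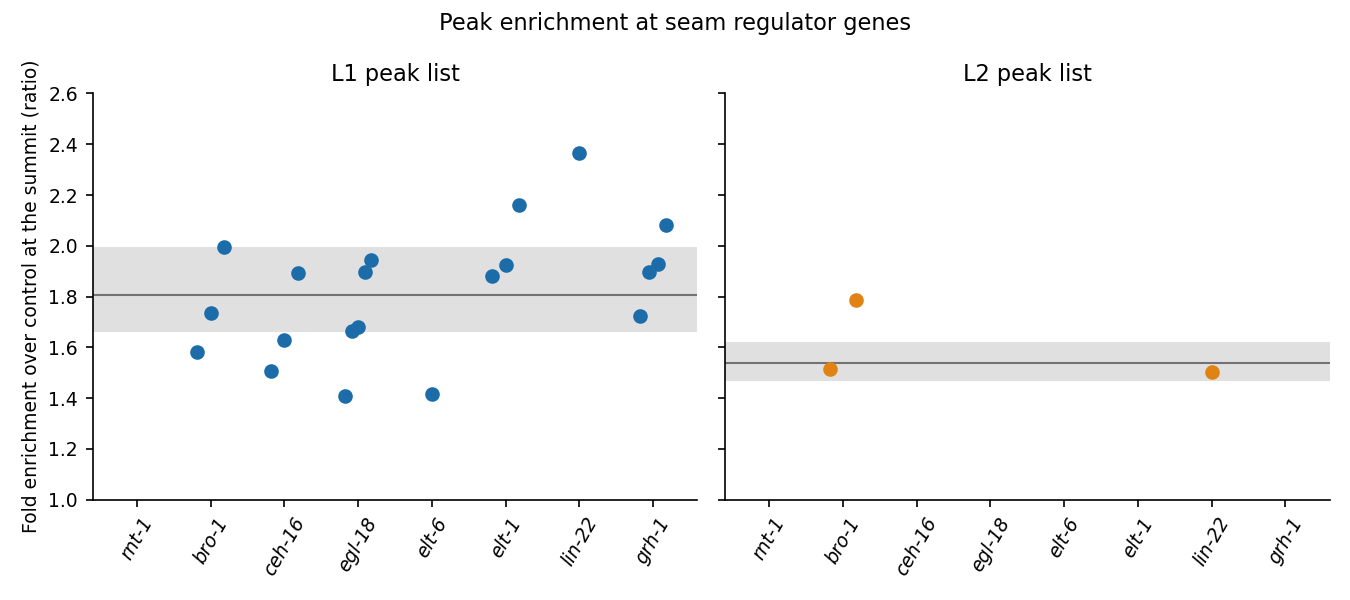
Fold enrichment over control at the summit of each peak (linear ratio, y axis) for each gene (x axis), in the L1 list (left) and the L2 list (right). Each point is 1 peak, the line is the median of all peaks in that list and the grey band their interquartile range; lin-22 holds the highest L1 point at 2.36, bro-1 the highest L2 point at 1.79, and rnt-1 has none.

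All 20 L1 peaks fell in the authors' promoter classes, 10 within 1 kb of a transcript start, 7 at 1 to 2 kb and 3 at 2 to 3 kb. Of all L1 peaks, 89.1% were in these classes. The classes count distance to either side of a start, and most of these peaks lay within genes. Measured against the longest transcript of each gene in the files, 16 peaks lay inside the gene, 3 lay upstream and 1 covered the start. The summit was inside the assigned transcript for 16 of the 20 peaks (80.0%), and for 61.6% of L1 peaks assigned to protein-coding genes. The 3 upstream peaks belonged to bro-1, egl-18 and elt-1.

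**Figure D2:**
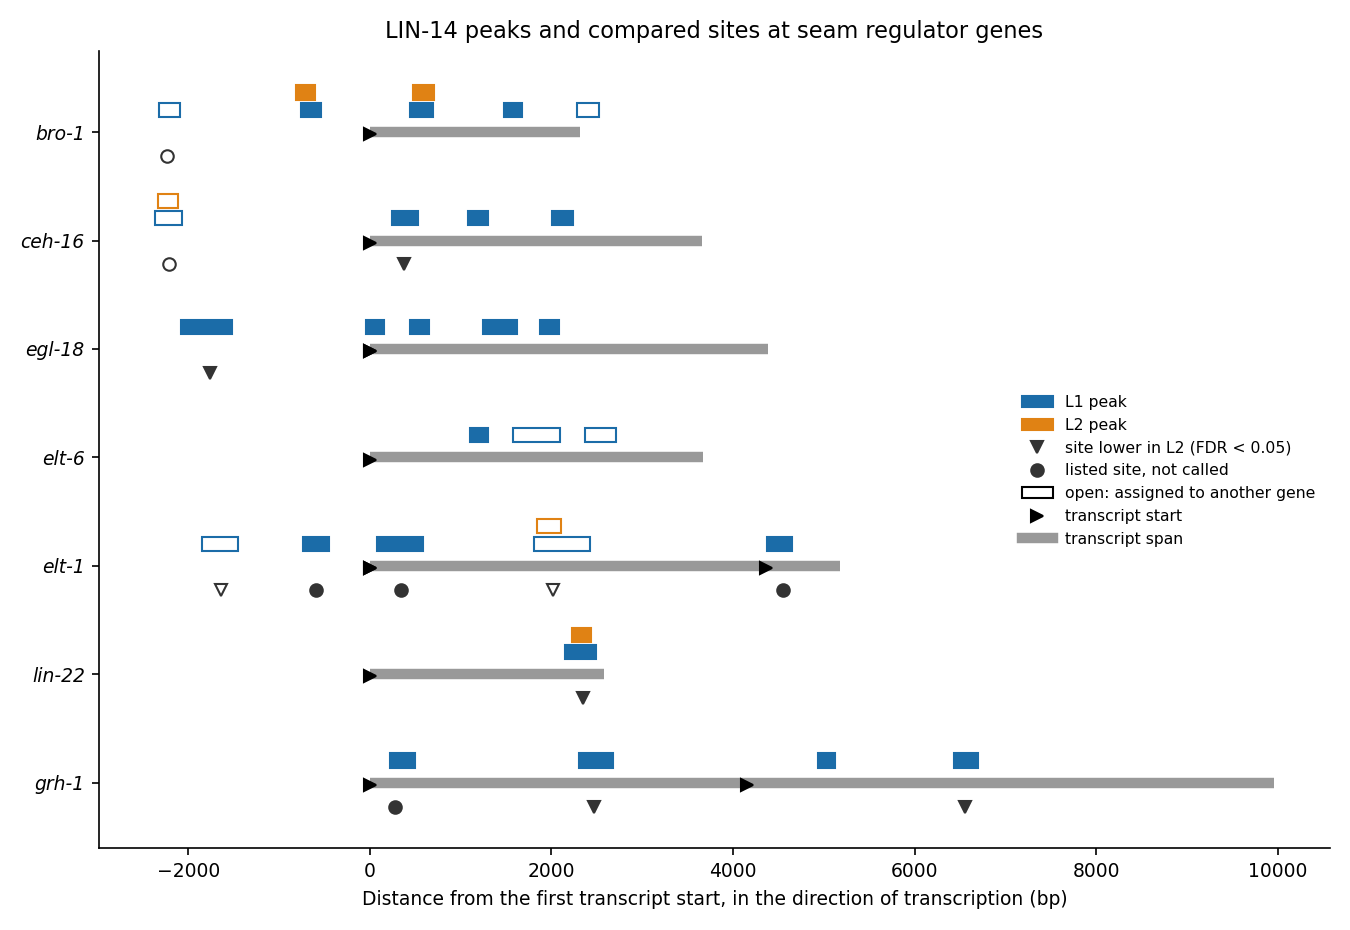
Position of peaks and compared sites (bp from the first transcript start, x axis) at the 7 genes with a peak (rows); grey bars are transcript spans and black arrowheads transcript starts, blue and orange boxes are L1 and L2 peaks, triangles are sites lower in L2 and circles are listed sites that were not called. Open symbols were assigned to another gene by the authors' annotation; L2 boxes appear at bro-1 and lin-22, and as open boxes at ceh-16 and elt-1.

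rnt-1 encodes the worm's only Runx factor, which promotes seam cell proliferation together with BRO-1. It had no assigned peak in L1 or L2 and no listed site. In the gene order of assembly WBcel235 it lies between the non-coding B0414.10 and cpb-3, and the piRNA gene 21ur-14150 is listed next to it. Neither B0414.10 nor 21ur-14150 had an assigned peak. The nearest L1 peaks on the 2 sides were assigned to the non-coding B0414.11 (chromosome I, 5781039 to 5781261, fold enrichment 1.73) and to cpb-3 (5789152 to 5789432, fold enrichment 2.00). Between them were 7890 bp with 0 L1 peaks, 0 L2 peaks and 0 listed sites. Stretches at least this long made up 5.71% of the 37012 intervals between neighbouring L1 peaks, whose median was 1175 bp. A gene is more likely to lie in a long interval than in a short one, so 5.71% understates how common such a setting is for genes. An L1 peak was assigned to 69.2% of protein-coding genes, so genes without one were common. Coordinates here and below are 1-based and as deposited; the build behind them is not stated in the labels or file headers.

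bro-1, on the same chromosome, encodes the CBF-beta homologue that binds RNT-1. Unlike rnt-1 it had peaks in both stages. In L1 a peak lay upstream, with its summit 609 bp before the start (5186166 to 5186392, fold enrichment 1.73, -log10 q 6.32). A stronger one lay inside the gene with its summit 590 bp past the start (5187374 to 5187629, fold enrichment 1.99, -log10 q 12.5). The weakest of its L1 peaks was 1573 bp past the start (fold enrichment 1.58). Both stronger peaks recurred in L2. The L2 peak inside the gene (5187403 to 5187641) had a -log10 q of 7.78 and a fold enrichment of 1.79, an enrichment above 96.7% of the L2 list. Its summit was 9 bp from that of the L1 peak, and the peaks shared 227 bp. The upstream L2 peak (5186119 to 5186322, fold enrichment 1.51) had its summit 41 bp from the L1 summit. Further upstream, 2215 bp before the start by summit, an L1 peak assigned to slx-1 (5184603 to 5184834) had a fold enrichment of 1.96. Another, assigned to fncm-1 (5189213 to 5189452, fold enrichment 1.79), covered the end of bro-1.

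No site of bro-1 was listed in the authors' deposited table of the stage comparison. That table holds no site with an FDR above 0.3, so a site with a high FDR and a site that was never tested cannot be told apart. A site assigned to slx-1 in the authors' deposited table, 2239 bp upstream of bro-1, was not called (-0.30 ± 0.24, FDR 0.251). Among the 2943 L1 peaks whose -log10 q lay within 1 unit of that of the intragenic bro-1 peak, 80.2% overlapped a listed site. Among the 1140 of these that also overlapped an L2 peak, 87.8% did. For L1 peaks like the weaker upstream one, the share with a listed site was 19.6%. Of the 20 L1 peaks of the seam regulators, 9 (45.0%) overlapped a listed site, against 38.7% of all L1 peaks.

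**Figure D3:**
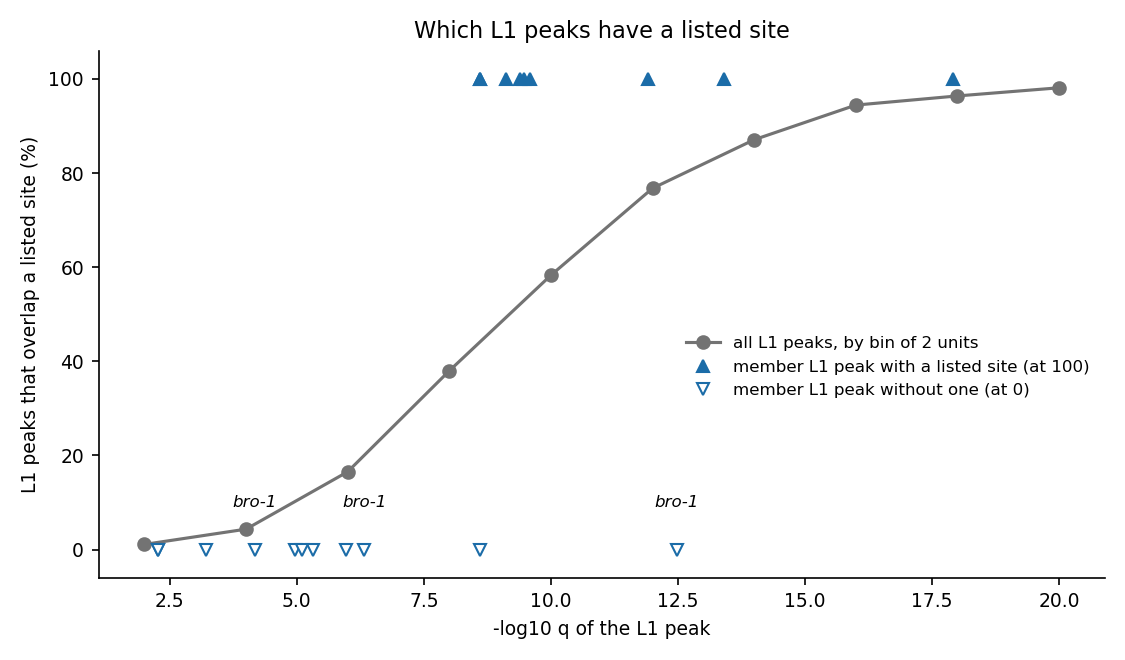
Share of all L1 peaks that overlap a site listed in the authors' comparison (percent, y axis) by the peak's -log10 q (x axis, bins of 2 units, grey), with the 20 L1 peaks of the seam regulators as triangles at 100 where they overlap a listed site and at 0 where they do not. The share in the bin from 11 to 13 is 76.8%, and the strongest of the 3 labelled bro-1 peaks, at 12.5, stands at 0.

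ceh-16 encodes the engrailed-type homeobox factor of the seam, known to favour symmetric divisions. Its 3 L1 peaks were all inside the gene (chromosome III). Enrichment was highest near the start, at 1.89 with the summit 379 bp past it (8622819 to 8623112), and was 1.63 at 1201 bp and 1.51 at 2122 bp. No L2 peak was assigned to it. The site over the peak nearest the start (8622843 to 8623064) had log2 concentrations, the log2 of the mean normalised read count, of 5.91 in L1 and 5.31 in L2 in the authors' deposited table. The authors' deposited table gives it a log2 fold of -0.59 ± 0.23 (SE derived from fold and p) and an FDR of 0.0409. That is a normalised read count lower by 33.6% in L2 in the authors' deposited table (log2 interval -1.05 to -0.13). How much of the count is background is not known. About 2.2 kb upstream, a stronger L1 peak (8620215 to 8620512, fold enrichment 2.20) recurred in L2 with a fold enrichment of 1.71. Both were assigned to the non-coding gene C13G5.3. The site there was not called in the authors' deposited table (-0.35 ± 0.18, FDR 0.0902).

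egl-18 and elt-6 are neighbouring GATA factor genes on chromosome IV that maintain seam fate downstream of Wnt signalling and act in part redundantly. The 5 L1 peaks of egl-18 ran from 1769 bp before its start to 1937 bp past it, by summit. The highest enrichment, 1.94, was at the upstream peak (1911371 to 1911933), the widest of the 20 at 563 bp. The peak over the start itself was lower at 1.68, and those inside the gene had 1.90, 1.66 and 1.41 in order from the start. The upstream peak was the one with a listed site (1911554 to 1911831). Log2 concentrations there were 5.61 (L1) and 5.06 (L2) per the authors' deposited table, a log2 fold of -0.55 ± 0.21 (FDR 0.0327). The intragenic peak at 580 bp had no listed site, as was the case for 55.8% of L1 peaks of like -log10 q.

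At elt-6, the assigned signal was weak. Its only peak, 1249 bp past the start (1919077 to 1919275), had a fold enrichment of 1.41, above 1.28% of all L1 peaks. A further pair of L1 peaks lay inside elt-6 but was assigned to the non-coding gene Y105E8A.42, whose start is also within elt-6. They had fold enrichments of 1.82 (1919559 to 1920069) and 1.42 (1920346 to 1920683). No L2 peak and no listed site lay over elt-6 under either assignment.

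elt-1 encodes the GATA factor that specifies epidermal fate in the embryo and is needed for the seam later. It had L1 peaks at each of its 2 transcript starts and none in L2. At the first start, an upstream peak had its summit 579 bp before it (chromosome IV, 9614218 to 9614501, fold enrichment 1.92). The peak just past it (9615036 to 9615544) had -log10 q of 13.4 and a fold enrichment of 2.16, an enrichment above 88.3% of L1 peaks. At the internal start, 4368 bp further on, the peak (9619322 to 9619602) had a fold enrichment of 1.88. In the authors' deposited table all 3 peaks had a listed site and 0 were called, nor did any have an unadjusted DiffBind p under 0.05. The site just past the first start had log2 concentrations of 6.16 in L1 and 5.89 in L2 in the authors' deposited table, the highest of the 9 sites in both stages. The authors' deposited table gives it a log2 fold of -0.27 ± 0.19 (FDR 0.209), with an interval from -0.65 to 0.11. The upstream site had -0.34 ± 0.21 (FDR 0.145) and the internal one -0.39 ± 0.25 (FDR 0.165) in the authors' deposited table. These intervals also cover 0, but reach to -0.75 and -0.88, so drops as large as those at the other genes are within them.

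The strongest L1 peak over any of the 7 mapped genes also lay inside elt-1, and was assigned to a piRNA gene within it, 21ur-15550. Its summit was 1979 bp past the elt-1 start (9616761 to 9617383), with -log10 q of 23.9 and a fold enrichment of 2.63, an enrichment above 99.1% of L1 peaks. It recurred in L2 (9616797 to 9617056, fold enrichment 1.60). The site there was lowered in the authors' deposited table, from a log2 concentration of 6.47 to 5.87 (log2 fold -0.61 ± 0.19, FDR 0.0167). A site 1644 bp upstream of elt-1, assigned to the non-coding W09C2.11, was lowered too in the authors' deposited table (-0.54 ± 0.20, FDR 0.0306). Whether the 5 sites in and near elt-1 differ from each other in their change was not tested.

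lin-22 encodes a Hes-type basic helix-loop-helix repressor that keeps anterior seam cells from making neurons. It had a single peak in each stage, and the L1 peak was the most enriched of the 20 at 2.36, with -log10 q of 17.9 (chromosome IV, 3021883 to 3022227). That enrichment is above 96.2% of the L1 list. In the files the summit lay 2370 bp past the start and 207 bp before the end of the transcript, near the 3′ end of the gene. The L2 peak (3021968 to 3022169) lay wholly inside the L1 peak, with its summit 11 bp away and a fold enrichment of 1.50. The normalised read count fell in the authors' deposited table, from a log2 concentration of 5.94 to 5.42 (log2 fold -0.52 ± 0.20, FDR 0.0385), or by 30.3%. No peak of either stage lay in the 3 kb upstream of lin-22.

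grh-1 encodes the Grainyhead factor, known for its part in building the epidermal barrier and cuticle. Its 2 transcripts in the files share an end and start 4150 bp apart on chromosome I, on the minus strand. All 4 L1 peaks lay within the longer transcript. Enrichment was highest near the first start (1267659 to 1267938, fold enrichment 2.08, summit 351 bp past it), and was 1.93, 1.73 and 1.90 at 2549, 5033 and 6534 bp. The first of these 3, annotated as 1472 bp upstream of the shorter transcript, is thus inside the longer one. None recurred in L2. Of its 3 sites in the authors' deposited table, 2 were lowered. The one between the starts (1265518 to 1265864) went from 6.05 to 5.43 in the authors' deposited table (log2 fold -0.62 ± 0.23, FDR 0.0337). The one past the second start (1261484 to 1261727) went from 5.49 to 4.91 in the authors' deposited table (-0.59 ± 0.22, FDR 0.0318). The site near the first start, under the most enriched peak, missed the threshold in the authors' deposited table (-0.43 ± 0.21, FDR 0.076).

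**Figure D4:**
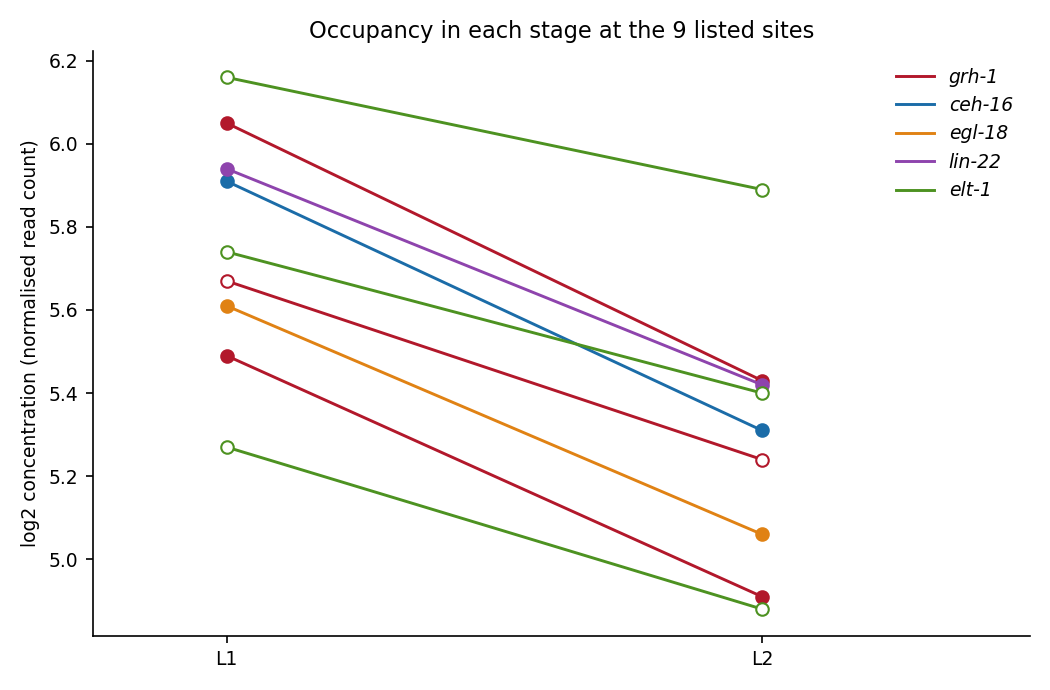
Log2 concentration (mean normalised read count on the log2 scale, y axis) in L1 and L2 at the 9 listed sites of the seam regulators in the authors' deposited table; each line is 1 site, coloured by gene, and filled points mark sites lower in L2 at an FDR below 0.05. All 9 lines go down, where 14638 of all 14675 listed sites had a fold below 0. The elt-1 site at 6.16 in L1 stays the highest at 5.89 in L2.

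The 5 lowered sites had FDRs between 0.0318 and 0.0409 in the authors' deposited table. At an FDR below 0.01, 0 of the 9 passed in the authors' deposited table, where 1.8% of all listed sites were lower and 0.0136% higher. An unadjusted DiffBind p under 0.05 was found at 6 of the 9, and at 9413 of all 14675 listed sites. Counted by gene, 4 of the 5 with a listed site had one that was lowered, per the authors' deposited table, as did 50.1% of protein-coding genes with a listed site. The median log2 fold of the 9 was -0.52 in the authors' deposited table, and that of all listed sites was -0.44. In the authors' deposited table, the 5 called sites were those below the common median. When each was tested against -0.44 in place of 0 with the errors derived from the authors' deposited table, 0 of 9 differed from it after adjustment, and 0 at an unadjusted p under 0.05. With a median standard error of 0.21 on folds that span -0.62 to -0.27 in the authors' deposited table, the sites cannot be ranked by their drop.

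**Figure D5:**
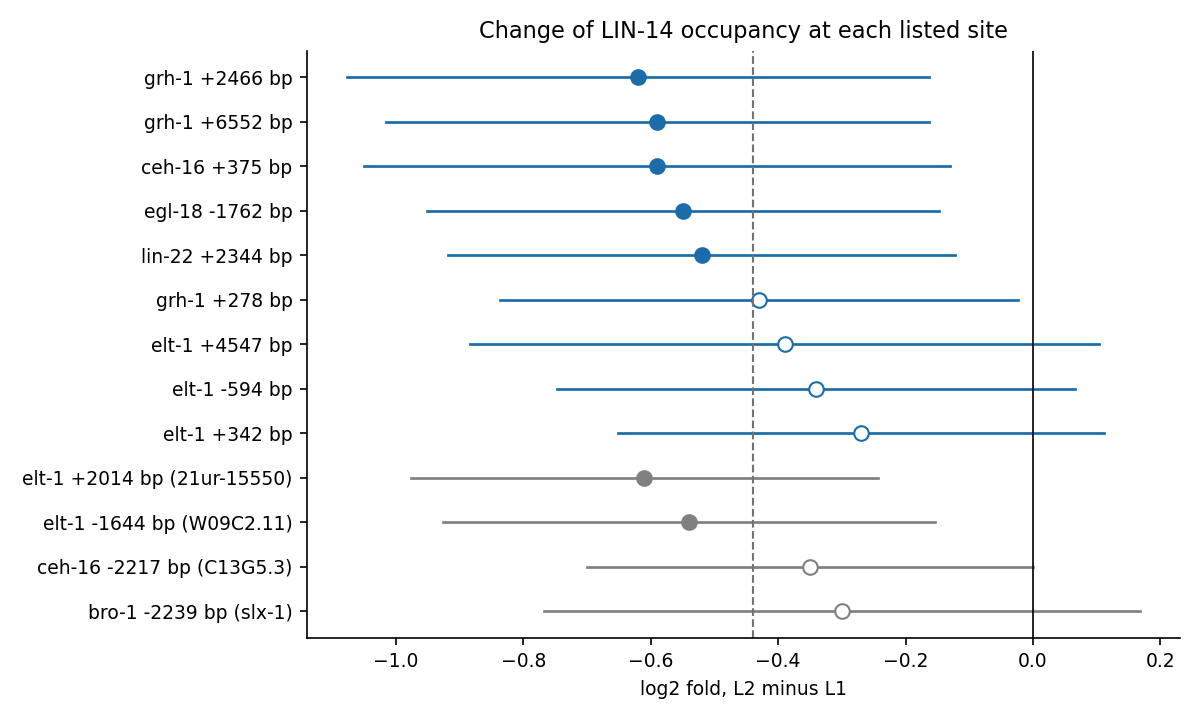
Log2 fold of the normalised read count, L2 minus L1 (x axis), at the 9 listed sites of the seam regulators (blue). Grey marks 4 sites in or within 3 kb upstream of the 7 genes with a peak that were assigned to another gene, named in brackets. Labels on the y axis give the site's middle relative to the first transcript start. Bars are 95% intervals derived from fold and p in the authors' deposited table, and filled points passed an FDR below 0.05. The dashed line is the median of all listed sites, -0.44, which every bar crosses, and the bars of the 3 sites assigned to elt-1 also cross 0, as do the grey bars near bro-1 and ceh-16.

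Of the 20 L1 peaks, 3 (15.0%) overlapped an L2 peak by at least 1 bp, near the 20.9% of all L1 peaks that did. All 3 L2 peaks overlapped an L1 peak, as 97.8% of L2 peaks did. The L2 list was called on other libraries and is shorter, so a peak missing from it does not show that LIN-14 was absent. No L2 peak was assigned to ceh-16, egl-18, elt-1 or grh-1. The L2 log2 concentration at their listed sites was 4.88 to 5.89 in the authors' deposited table, against 5.42 at lin-22, which had an L2 peak. No background level goes with these read counts, so they do not show that LIN-14 was bound there in L2.

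Other genes of the seam and epidermis gave the setting. Of 30 such genes, 24 had an L1 peak, 14 an L2 peak and 18 a listed site, where 69.2%, 24.5% and 39.0% of all protein-coding genes did. Of the 18, 8 had at least 1 site that was lowered per the authors' deposited table, against 50.1% of protein-coding genes with a listed site. No raised site was listed for them. Of their 37 sites in the authors' deposited table, 10 (27%) were lowered, against 41.4% of all listed sites, and the median log2 fold was -0.41 against -0.44. Among 7 epidermal transcription factors, all had L1 peaks (nhr-25 2, nhr-23 5, lin-26 3, elt-3 4, blmp-1 3, lin-29 7, hbl-1 3). Of their 13 sites in the authors' deposited table, 3 were lowered, at lin-26, needed for epidermal identity (-0.49, FDR 0.0407), the zinc finger gene blmp-1 (-0.50, FDR 0.0473) and hbl-1 (-0.49, FDR 0.0262). The lowered blmp-1 site was annotated to a 3′ untranslated region, the others to promoter classes. Each of these 3 genes also had a second site that was not called in the authors' deposited table, and neither were the sites of lin-29 (4), nhr-23 (2) and nhr-25 (1). The fusion protein gene eff-1 had 5 L1 peaks and 3 sites in the authors' deposited table, of which 1 was lowered (-0.41, FDR 0.0385), and aff-1, the other fusogen gene, had no peak.

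Among 7 genes of Wnt signalling, lit-1 had 10 L1 peaks, bar-1 5, wrm-1 4, sys-1 3, apr-1 2, pop-1 1 and pry-1 0. Of their 7 sites in the authors' deposited table, 1 was lowered, at apr-1, an APC-related gene (-0.59, FDR 0.016). In the patterning group, dpy-22 had 7 L1 peaks, unc-62 and mab-5 4 each, egl-27 3, pal-1 2, tlp-1 1 and ceh-20 0. Among these, unc-62, a Meis-type homeobox gene, had the single lowered site, annotated as intronic, per the authors' deposited table (-0.51, FDR 0.0333). The cell cycle genes cyd-1 (5 L1 peaks), cki-1 (3) and cdk-4 (2) had sites, while cye-1 had no peak. In the authors' deposited table all 3 cyd-1 sites were lowered, where 41.4% of all listed sites were. Their log2 folds ran from -0.50 to -0.44 with FDRs of 0.0336 to 0.0464, and the median over all listed sites was -0.44. The cyd-1 site at -0.44 was annotated as distal intergenic, and the others fell in promoter classes. The cyd-1 partner cdk-4 had a single site, lowered per the authors' deposited table (-0.46, FDR 0.0385). Neither site of the inhibitor cki-1 passed (both -0.24, FDR 0.205 and 0.213). The hedgehog-related grd-10 had 1 L1 peak, and wrt-2 and lin-28 had none.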

How the data were processed

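The submitters' processing notes name BWA and SAMtools (reads), MACS2 (peaks), DiffBind (comparison) and ChIPseeker (annotation), without versions. The genome build, the control libraries and the normalization are not stated in the labels or headers. Per the file headers and peak names, libraries of a stage were merged, outliers were left out, and each peak in the deposited lists has a score (10 times its -log10 q-value), a fold enrichment ratio and a -log10 q-value. The authors' deposited comparison gives log2 concentrations, a log2 fold (L2 minus L1), a p-value and its FDR per site. Whether replicates are separate cultures is not stated, so those p-values may reflect technical spread.

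Genes were read by the authors' gene name. The members and lists were chosen with earlier results of these data known. All 8 members, and all 30 genes of the second list, were to be named. Standard errors were taken as the log2 fold divided by the normal quantile of its p-value, an approximation, since the statistic behind p is not stated. Only its arithmetic was checked, on simulated normal errors. Intervals are at 95%. Sites were also tested against the common median, with Benjamini-Hochberg adjustment over all listed sites. RefSeq symbols matched 99.8% of L1 peaks. Peaks within 3 kb upstream of a gene counted as near. The alternatives varied FDR, peak thresholds, overlap and gene assignment. A search of promoter sequence was planned and not run. Computations used SciPy 1.17.1, pandas 2.3.3 and NumPy 2.4.6 under Python 3.11.15, and figures matplotlib 3.10.9.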

Additional observations from a re-analysis of the deposited data

How the results depend on the processing

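The 5 lowered sites became 0 at an FDR below 0.01, where 1.8% of all listed sites passed in the authors' deposited table, and 0 when sites were tested against the common median in place of 0. They were 6 at an FDR below 0.1 (67.9% of all listed sites in the authors' deposited table). They stayed 5 with direction taken after subtracting the median, a weak check, since called sites are picked for a large drop. With 1 site per gene, 4 of 5 were lowered (42.1% of 10004 genes with a listed site in the authors' deposited table). With sites in or near a member that were assigned to other genes, an alternative chosen after seeing the data, 7 of 13 were lowered. The surroundings of rnt-1, which had no mapped span, were not searched for this. Of all listed sites, 41.4% were lowered in the authors' deposited table. No member site was raised under any of these alternatives. The log2 folds of elt-1 and grh-1, the genes with several sites, kept their side of the threshold when the site of lowest FDR replaced that of highest concentration.

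The 20 L1 peaks fell to 4 at a q-value of 1e-10 or less and to 3 at a fold enrichment of 2 or more. Over all L1 peaks the upper quartile of fold enrichment was 1.99. The shares of all peaks that pass the q-value thresholds of either stage were not worked out. The L1 peaks of the members stayed at 20 in promoter classes. They became 27 when peaks over or near a member were counted whatever their assigned gene. That count leaves out rnt-1, since gene spans were read from assigned peaks and sites and it had none. The 3 L2 peaks fell to 1, at bro-1, with a -log10 q of 5 or more. The 3 overlapping peaks stayed 3 with 50% reciprocal overlap and by summit. No paired analysis was possible because the files hold no values for single libraries, and for the same reason no replicate was left out. Depth limits the absence of a peak or site, since it is unknown per library.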
